A study of Mus musculus with 6 samples.

Results

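The genes described here are 39 genes of the extracellular matrix and of proteoglycans, out of 22180 genes measured. They were taken as a named list, which was made with earlier results of these data known. All 39 had a probe set that named that gene only, and for the 5 genes with 2 such probe sets the one with the higher mean over the 6 arrays was used. They were measured on Affymetrix Mouse Gene 2.0 ST arrays in cultured neurospheres, floating colonies that neural stem and progenitor cells of the subventricular zone form in growth medium. CD1 mice, an outbred stock, were 2 months old when cells were taken, and all cultures grew for 7 days with EGF at 20 ng/ml and FGF2 at 10 ng/ml. Titles call the neurospheres primary and the sample descriptions secondary. The PBS group holds cultures from 3 offspring of mothers injected with PBS, and the MG group cultures from 3 offspring of mothers injected with MG at 0.5 mg/kg, which the series title lets one read as methylglyoxal. In both groups the mothers received 2 injections a day into the peritoneum, starting on gestational day 12 and ending with delivery. The labels give neither the sex nor the litter of the animals, so p-values measure the spread among 3 cultures a group, and a difference between litters and one between treatments cannot be told apart.

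The brain's extracellular matrix is built on hyaluronan, to which the lecticans, a family of chondroitin sulfate proteoglycans, are bound and held by link proteins. Tenascins cross-link lecticans. Laminins, type IV collagen, nidogens, perlecan and agrin form the basement membrane, and in the subventricular zone branched structures rich in these proteins touch the stem cells. Syndecans and glypicans are heparan sulfate proteoglycans of the cell surface. Heparan sulfate binds FGF2 together with its receptor, and the medium of these cultures contained heparin as well.

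The cultures carried the markers of their label: 9 of 9 measured neural stem and radial glia genes were above a reference level in PBS and in MG alike, Nes and Sox2 among them. That level, 5.02 on the log2 scale, is the 95th percentile of the means of 1390 olfactory and vomeronasal receptor genes. Of all 22180 genes, 13704 were above it in both groups. So were 9 of 9 oligodendrocyte lineage, 9 of 10 astrocyte and 7 of 8 neuroblast and neuron genes. Being above this level therefore does not single out stem cells. Of the 39 matrix genes, 36 were above it in both groups. Acan and Hapln1 were below it in both, and Gpc3 was above it only after MG. A probe set's brightness depends on its probes, so no gene's level is set against another gene's here. The arrays numbered 3 of both groups stood apart from the other 4 in growth genes. The 17 DNA replication genes stood, on average, 0.44 (PBS) and 0.48 (MG) above their mean of the 6 arrays there, and between -0.40 and -0.13 from it on the others. Matrix genes differed on the same arrays, so the results below are given with all arrays and, where the sign or size moved clearly, without both arrays numbered 3.

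No matrix gene differed between MG and PBS past the adjusted threshold of 0.05 in limma's moderated test (0 of 39, beside 0% of all 22180 genes). The adjusted p was 0.9998 for each of the 39. At an unadjusted p under 0.05 there were 0 of 39, beside 3.21% of all genes, and the smallest unadjusted p of a matrix gene was 0.101. The 3 MG values and the 3 PBS values did not overlap for 2 of the 39 genes, Col1a1 and Gpc4, which is 5.13%, beside 7.34% of all genes. Means were higher after MG for 25 genes and lower for 14. The share that was higher, 64.1%, stands beside 53.8% of all genes. The median log2 difference was 0.04, beside 0.01 over all genes, and the range ran from -0.26 (Col1a1) to 0.40 (Sparcl1). The 95% confidence interval lay within a 2-fold change in either direction for 37 genes. The intervals of the other 2, Tnr and Sparcl1, reached past 2-fold.

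**Figure D1:**
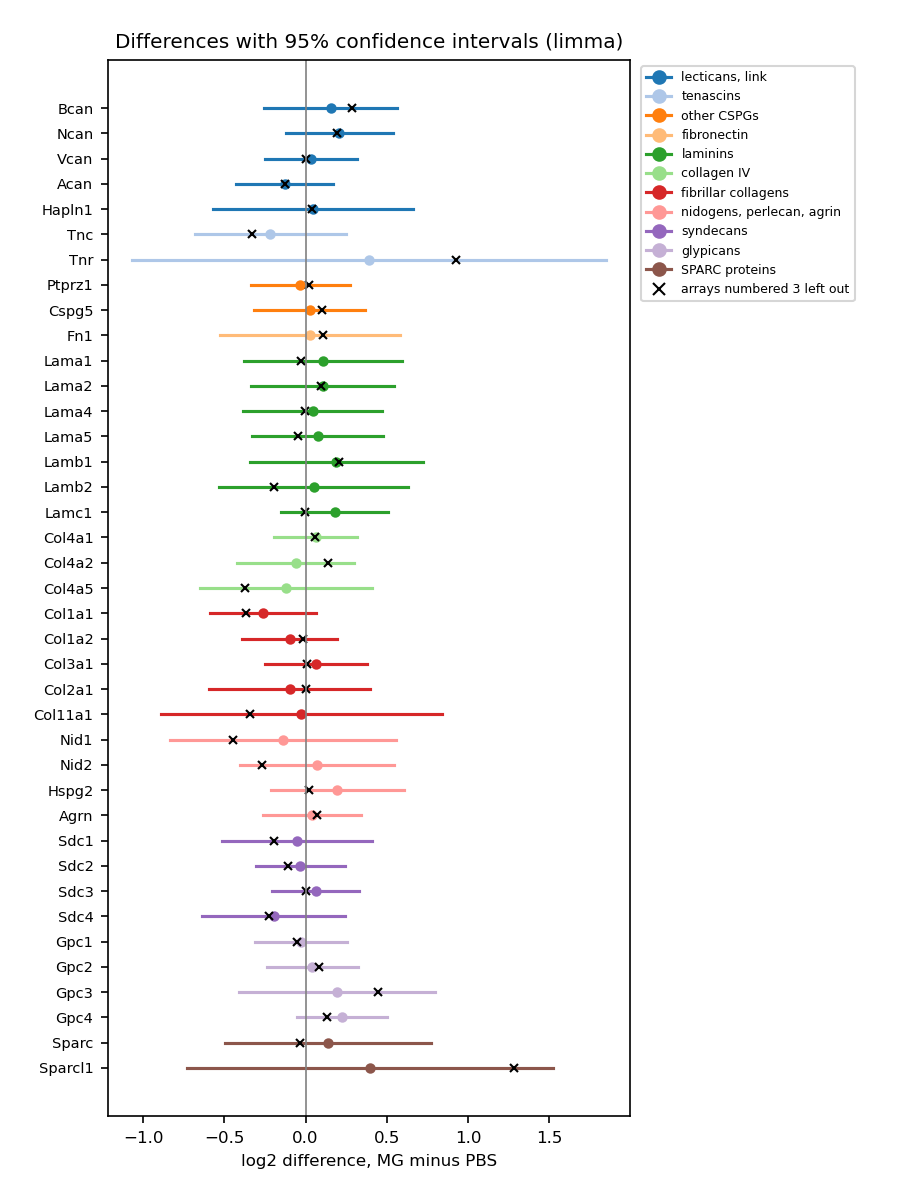
Log2 difference between MG and PBS means (horizontal axis) for each of the 39 matrix genes, with the 95% confidence interval from limma as a bar and the gene family as colour; crosses give the difference without both arrays numbered 3. All 39 intervals from the 6 arrays cover 0, and the crosses of Tnr (0.93) and Sparcl1 (1.29) lie furthest to the right.

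Without both arrays numbered 3, where the comparison is 2 cultures against 2, 5 of the 39 genes (12.8%) had an unadjusted p under 0.05 in limma, beside 4.81% of all genes. Sparcl1 and Tnr had higher means after MG, and Nid1, Col11a1 and Col4a5 lower ones. None of the 5 passed after adjustment, and the lowest adjusted p was 0.974, for Sparcl1. Means were then higher after MG for 21 of 39 genes, beside 50.7% of all genes. Leaving out PBS replicate 3 alone gave 3 of the 39 genes with an unadjusted p under 0.05 in limma, a larger share than the 3.02% of all genes. Means were then higher after MG for 16 of the 39, a smaller share than the 51.1% of all genes. Leaving out MG replicate 3 alone gave 4 of the 39 with an unadjusted p under 0.05 in limma, a larger share than the 4.24% of all genes. None passed after adjustment in either fit. Weighting the arrays by their quality gave 2 of the 39, Col1a1 and Sparcl1, beside 5.24% of all genes.

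For 34 of the 39 genes the difference between the group means was smaller than the within-group SD. The median within-group SD of the 39 was 0.25 on the log2 scale, beside 0.18 over the 13704 genes brighter than the reference in both groups. It was above that 0.18 in 24 of the 39 genes. In 9 genes it was above the 90th percentile of the genes above the reference level. These were Tnr, Sparcl1, Col11a1, Nid1, Sparc, Hapln1, Gpc3, Lamb2 and Fn1. By family, the median SD was 0.28 for the 7 laminins and 0.28 for the nidogen, perlecan and agrin genes. It was 0.17 for the lecticans with Hapln1, 0.16 for the 5 fibrillar collagens, 0.19 for the 4 syndecans and 0.11 for the 4 glypicans. The tenascins had SDs of 0.30 (Tnc) and 1.08 (Tnr), and the SPARC proteins of 0.44 (Sparc) and 0.82 (Sparcl1).

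**Figure D2:**
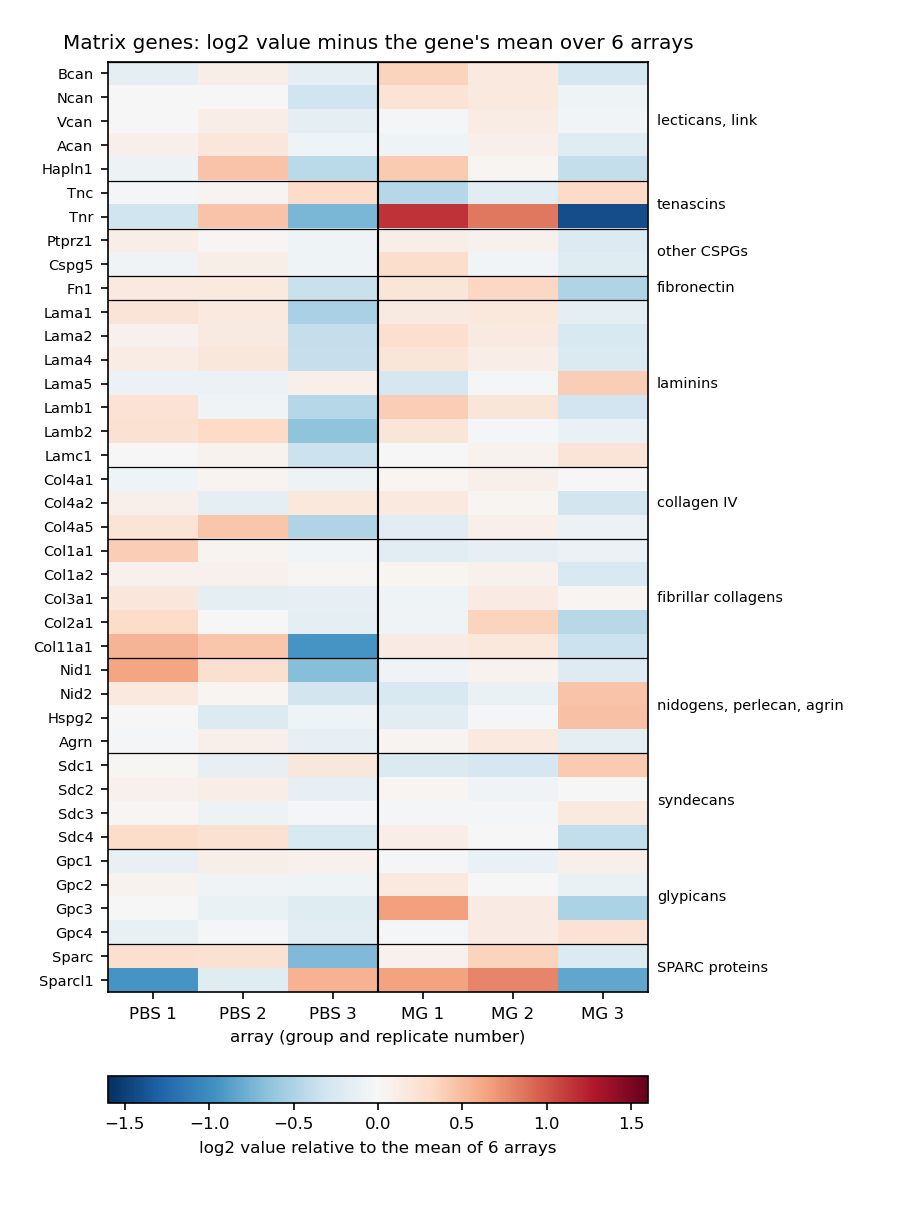
Heat map of the 39 matrix genes (rows, by family) on the 6 arrays (columns), coloured by the log2 value minus that gene's mean over the 6 arrays. The columns of PBS replicate 3 and MG replicate 3 are mostly blue (lower), with Tnr lowest in MG replicate 3 and Tnc, Sdc1 and Lama5 red on both.

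Much of that spread lay on the arrays numbered 3. For 25 of 39 genes (64.1%), replicate 3 was below the mean of replicates 1 and 2 in both groups, beside 34.0% of all genes. In 6 genes (15.4%) it was above that mean in both, beside 28.9% of all genes. The remaining 8 went opposite ways in the groups. The median gap of replicate 3 was -0.20 in PBS and -0.25 in MG, where over all genes it was -0.02 in both groups. All 5 genes of the lectican group and 5 of the 7 laminins were lowest on array 3 in both groups, as were 24 of all 39 genes. The share of all genes that were lowest there in both groups was not computed. In the lectican group, Acan and Hapln1 lay below the reference level. The 4 syndecans were mixed, with 1 below in both groups, 2 above in both and 1 that differed. Astrocyte markers stood low on these arrays too, with a mean of the 10 genes of -0.37 in PBS replicate 3 and -0.31 in MG replicate 3. On the other arrays it lay between -0.03 and 0.30. Of these 10 genes, 9 were above the reference level and Gjb6 below it, and their sum ran from 13.48 to 13.89 in PBS and from 13.64 to 14.00 in MG, as log2. The part of the replication and astrocyte genes in the matrix values was not tested, and in bulk cultures fewer cells of a type and less RNA per cell cannot be told apart.

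**Figure D3:**
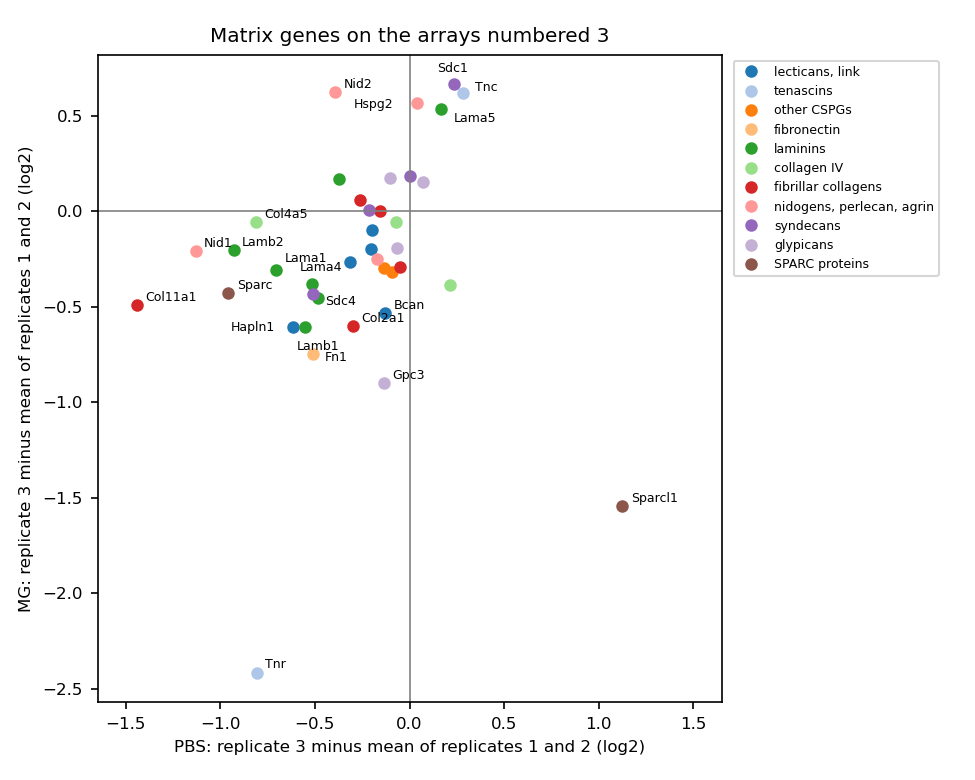
Replicate 3 minus the mean of replicates 1 and 2, in log2 units, within PBS (horizontal axis) and within MG (vertical axis), for the 39 matrix genes coloured by family. 25 points lie in the lower left quadrant, 6 in the upper right, and Sparcl1 lies furthest to the lower right, at 1.13 in PBS and -1.54 in MG.

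The start regions of the genes that moved furthest the same way on both arrays numbered 3 are shown so that they can be compared. The 4 that were furthest below are Tnr, Col11a1, Sparc and Nid1, and the 2 that were furthest above are Tnc and Sdc1. They were picked after the values were seen, among the 28 members with an entry in RefSeq's promoter table. Each line holds the 250 bases before the annotated start in GRCm38.p6, written 5′ to 3′ on the gene's strand. Capitals mark a TATA box (TATAAA or TTTATA), a GC box (GGGCGG or CCGCCC) or a CCAAT box (CCAAT or ATTGG), searched on both strands.
Tnr, chr1:159523519-159523768, plus strand: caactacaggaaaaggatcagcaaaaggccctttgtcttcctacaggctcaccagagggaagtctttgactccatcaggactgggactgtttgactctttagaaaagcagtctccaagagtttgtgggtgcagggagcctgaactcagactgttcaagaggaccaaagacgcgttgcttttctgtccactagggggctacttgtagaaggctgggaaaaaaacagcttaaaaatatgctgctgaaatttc
Col11a1, chr3:114030290-114030539, plus strand: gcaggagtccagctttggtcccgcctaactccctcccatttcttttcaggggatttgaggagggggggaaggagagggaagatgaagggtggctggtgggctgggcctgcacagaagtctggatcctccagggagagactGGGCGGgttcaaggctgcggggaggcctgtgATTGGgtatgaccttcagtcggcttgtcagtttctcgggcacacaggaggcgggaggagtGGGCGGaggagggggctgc
Sparc, chr11:55420081-55420330, minus strand: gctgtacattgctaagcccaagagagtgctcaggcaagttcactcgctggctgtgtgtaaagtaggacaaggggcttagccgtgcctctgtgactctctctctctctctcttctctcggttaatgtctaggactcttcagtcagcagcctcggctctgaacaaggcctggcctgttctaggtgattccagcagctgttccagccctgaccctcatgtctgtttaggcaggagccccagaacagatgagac
Nid1, chr13:13437352-13437601, plus strand: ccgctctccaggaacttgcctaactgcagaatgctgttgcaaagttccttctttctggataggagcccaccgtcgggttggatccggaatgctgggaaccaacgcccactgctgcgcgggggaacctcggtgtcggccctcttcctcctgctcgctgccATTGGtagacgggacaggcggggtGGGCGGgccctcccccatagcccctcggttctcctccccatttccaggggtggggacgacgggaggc
Tnc, chr4:64047016-64047265, minus strand: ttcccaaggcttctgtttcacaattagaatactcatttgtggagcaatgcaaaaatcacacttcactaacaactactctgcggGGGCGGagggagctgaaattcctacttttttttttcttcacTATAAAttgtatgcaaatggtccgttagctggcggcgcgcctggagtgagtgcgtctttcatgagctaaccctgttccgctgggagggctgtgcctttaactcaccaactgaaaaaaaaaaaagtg
Sdc1, chr12:8771146-8771395, plus strand: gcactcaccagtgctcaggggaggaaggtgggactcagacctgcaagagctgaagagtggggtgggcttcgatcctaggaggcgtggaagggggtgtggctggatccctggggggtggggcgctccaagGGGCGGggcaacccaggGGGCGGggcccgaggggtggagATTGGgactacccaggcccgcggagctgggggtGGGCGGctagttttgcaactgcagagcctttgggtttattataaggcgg

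Neither Tnr nor Sparc held any of the 3 motifs in this window. Col11a1 held 2 GC boxes, starting at positions -110 and -19 from the start, and 1 CCAAT box. Nid1 held 1 GC box and 1 CCAAT box. The Tnc window held the only TATA box of the 6, starting at position -126, and 1 GC box. Tnc has 2 annotated starts in the table, and the one further upstream is shown. Sdc1 held 3 GC boxes and 1 CCAAT box. Among all 32851 windows of this length, 12.4% held a TATA box, 32.7% a GC box and 33.8% a CCAAT box. Among the 30 windows of matrix genes these shares were 13.3%, 76.7% and 43.3%. GC content ran from 44.8% (Tnc) to 66.0% (Sdc1), and the median was 52.4% over all windows and 62.4% over those of matrix genes. So the 4 windows of genes that were low on these arrays shared no motif among those searched, and a match is a run of letters, not a measured site.

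Among the lecticans, the proteoglycans that bind hyaluronan, neurocan (Ncan) had the largest difference with all arrays, and brevican (Bcan) without both arrays numbered 3. On replicates 1, 2 and 3 in that order, as in all such sentences here, Ncan read 12.20, 12.21 and 11.89 with PBS, and 12.43, 12.37 and 12.13 with MG. The groups overlapped in the lowest MG value alone, and replicate 3 was lowest in each group. The means were 12.10 ± 0.18 (SD, n = 3) and 12.31 ± 0.15 (SD, n = 3), which differ by 0.21 (standard error 0.14, 95% interval from -0.12 to 0.54). A second Ncan probe set gave 0.21 as well. The Ncan difference was 0.19 without both arrays numbered 3, and 0.10 without PBS replicate 3 alone. Bcan, which is made largely by glia, differed by 0.15, and by 0.29 without both arrays numbered 3. Versican (Vcan) differed by 0.03. The link protein gene Hapln1 had the widest spread of this group, at 4.18, 4.72 and 3.83 in PBS and 4.69, 4.30 and 3.89 in MG, all below the reference level. Aggrecan (Acan), the lectican of perineuronal nets, lay between 4.72 and 5.09 with means below the reference level. Differences at these levels are not read as changes in either gene. Hapln1 and Vcan are direct neighbours on chromosome 13. Both were lowest on array 3 in each group, but so were 24 of the 39 genes, and Hapln1 is too dim for its order to be read.

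Ptprz1 and Cspg5 encode further chondroitin sulfate proteoglycans of neural progenitors and glia, Ptprz1 a receptor phosphatase that binds tenascins. Ptprz1 lay at 12.46, 12.38 and 12.28 (PBS) and at 12.45, 12.43 and 12.15 (MG). The groups overlapped and the log2 difference was -0.03 (standard error 0.13, interval from -0.33 to 0.27). Cspg5 measured 10.52, 10.67 and 10.51 on the PBS arrays against 10.86, 10.54 and 10.38 on the MG arrays, and also overlapped. Its log2 difference was 0.03 (standard error 0.15, interval from -0.32 to 0.37). Ptprz1 differed by 0.02 and Cspg5 by 0.10 without both arrays numbered 3.

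The 2 tenascins went opposite ways on the arrays. Tenascin-R (Tnr), which oligodendrocyte lineage cells and some neurons make, had the largest spread of all 39 genes, above that of 99.9% of the genes over the reference level. Its values on the 3 arrays were 8.75, 9.52 and 8.33 for PBS and 10.22, 9.90 and 7.65 for MG. MG replicates 1 and 2 were the highest of the 6 arrays and MG replicate 3 the lowest. MG minus PBS came to 0.39 (standard error 0.63, interval from -1.07 to 1.85). Without both arrays numbered 3 it was 0.93 (standard error 0.27, interval from 0.28 to 1.57, unadjusted p = 0.012 and adjusted p = 0.9995 in limma). The mean of the 9 measured oligodendrocyte lineage markers, relative to the 6 arrays, was -0.07, 0.16 and -0.24 in PBS and 0.40, 0.10 and -0.35 in MG. The markers were not uniform. Replicate 3 was below the mean of replicates 1 and 2 in both groups for 7 of the 9, beside 34.0% of all genes. Enpp6 had gaps of -1.06 in PBS and -2.23 in MG. Olig2 stood slightly above in both groups (0.10 and 0.17), and Mog went opposite ways. All 9 were above the reference level, and their summed level, as log2 of the sum, ran from 13.79 to 13.86 in PBS and from 13.79 to 13.90 in MG. The sum adds values on the linear scale, so it rests mostly on Olig1 (means 12.5 in PBS and 12.5 in MG) and Olig2 (12.7 and 12.8). It says little of the dimmer markers, such as Enpp6. The part of the 9 markers in the Tnr values was not tested.

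Tenascin-C (Tnc), a tenascin of stem cell niches and reactive glia, was, in each group, highest on the array where Tnr was lowest. It read 11.14, 11.20 and 11.45 with PBS, and 10.70, 10.98 and 11.46 with MG. MG replicates 1 and 2 were below every PBS value, and MG replicate 3 was above every one. This left a log2 difference of -0.22 (standard error 0.20, interval from -0.68 to 0.25), and -0.33 (standard error 0.15) without both arrays numbered 3.

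**Figure D4:**
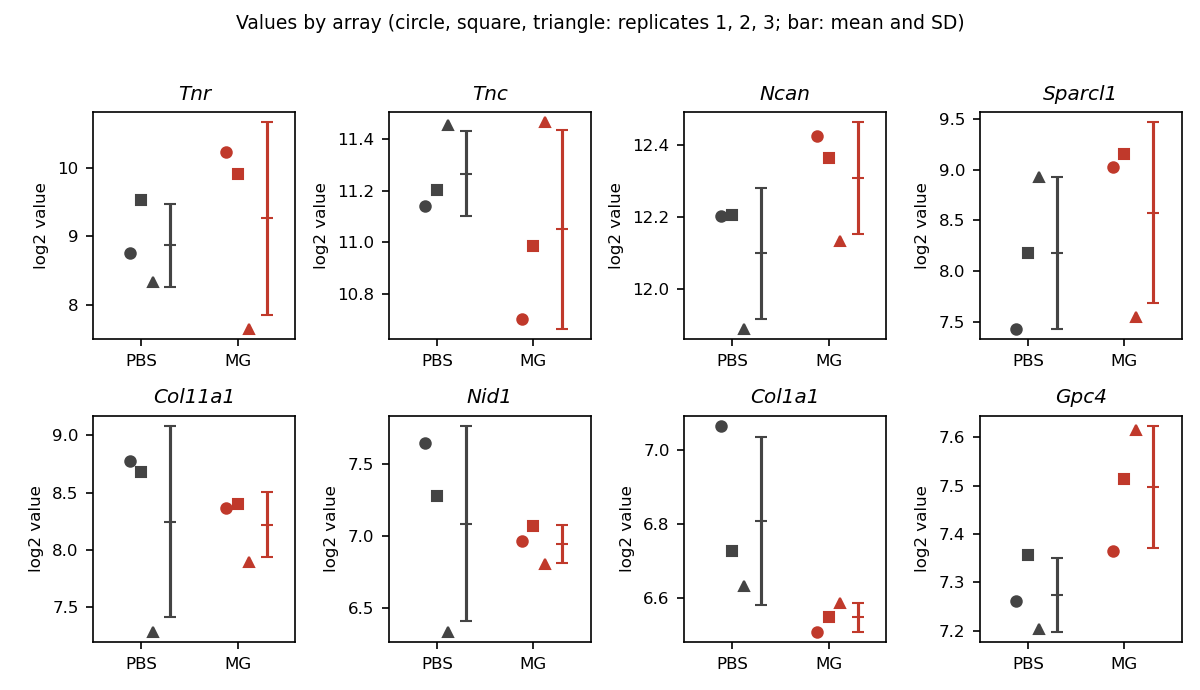
Log2 values of 8 matrix genes on each array (vertical axes differ and do not start at 0), PBS in grey and MG in red; circles, squares and triangles are replicates 1, 2 and 3, and bars give the group mean and SD. Only Col1a1 and Gpc4 show no overlap between the groups, and for Tnr, Tnc and Sparcl1 MG replicate 3 lies far from MG replicates 1 and 2.

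Fibronectin (Fn1), the adhesive glycoprotein that integrins bind, lay at 9.40, 9.40 and 8.89 (PBS) and at 9.44, 9.57 and 8.76 (MG). Array 3 was lowest in each group and the other 4 values lay within 0.2 of each other. The means differed by 0.03 (standard error 0.24, interval from -0.52 to 0.58).

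All 7 laminin chain genes had higher means after MG, with log2 differences from 0.04 (Lama4) to 0.19 (Lamb1) and a median of 0.10. The direction rested on the arrays numbered 3. Without them Lama1, Lama4, Lama5 and Lamc1 differed by only -0.05 to -0.0017, with standard errors of 0.12 to 0.14, so no direction is read. Lamb2 then differed by -0.19, and Lama2 and Lamb1 by 0.09 and 0.21. Lamb1, the beta chain of the trimers of early tissue, measured 7.53, 7.23 and 6.83 on the PBS arrays against 7.69, 7.49 and 6.98 on the MG arrays. Its groups overlapped, and the difference of 0.19 had a standard error of 0.23, with an interval from -0.34 to 0.72. Lamb2, the alternative beta chain, had the widest spread of the family. It read 8.15, 8.22 and 7.26 with PBS, and 8.10, 7.89 and 7.79 with MG, so that PBS replicate 3 alone was low. Its log2 difference was 0.05 (standard error 0.25) with all arrays and -0.19 (standard error 0.14) without both arrays numbered 3.

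The alpha chains, which carry the sites that cells bind, did not follow 1 pattern. Lama1, Lama2 and Lama4 were lowest on array 3 in both groups, with gaps to the mean of the other replicates from -0.71 to -0.31. Lama5 went the other way and was highest on array 3 in both, with gaps of 0.17 in PBS and 0.53 in MG. Lamc1, the gamma chain shared by most trimers, had replicate 3 gaps of -0.37 in PBS and 0.17 in MG. On the other 4 arrays Lamc1 lay between 9.70 and 9.75.

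Type IV collagen forms the network of the basement membrane. Col4a1 and Col4a2 encode the chains of its common trimer and start head to head on chromosome 8. Their annotated starts in GRCm38.p6 lie within 22 bases of each other. This stretch, chr8:11312805-11312826 on the plus strand, is shown because both genes begin in it. Motifs are not marked by capitals here, and the stretch holds the letters of a GC box (GGGCGG) in lower case.
Col4a1 and Col4a2: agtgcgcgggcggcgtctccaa
Col4a1 had the smallest spread of the 39 genes, with values from 5.80 to 5.96 over the 6 arrays and a log2 difference of 0.06 (standard error 0.11). Col4a2 lay between 5.10 and 5.56, with a difference of -0.06 (standard error 0.16), and of 0.14 without both arrays numbered 3. PBS replicate 3 was the lowest value of Col4a1 (5.80, beside 5.82 on PBS replicate 1). It was also the highest of Col4a2 (5.56, beside 5.54 on MG replicate 1). These gaps are small beside the within-group SDs of 0.06 (Col4a1) and 0.20 (Col4a2), so no difference in order is read. Col4a5, a chain of another trimer, lay at 7.06, 7.29 and 6.36 (PBS) and at 6.67, 6.92 and 6.74 (MG). The log2 difference was -0.12 (standard error 0.23, interval from -0.65 to 0.41) with all arrays. It was -0.37 (standard error 0.15, unadjusted p = 0.0492, adjusted p = 0.9995 in limma) without both arrays numbered 3, where both MG values lay under both PBS values.

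Of the other basement membrane genes, nidogen 1 (Nid1), a linker between laminin and type IV collagen, varied most. It measured 7.65, 7.28 and 6.33 on the PBS arrays against 6.96, 7.07 and 6.80 on the MG arrays. The MG values lay inside the range of PBS, which PBS replicate 3 stretched downwards. MG minus PBS came to -0.14 (standard error 0.30, interval from -0.84 to 0.55), and -0.45 (standard error 0.16, unadjusted p = 0.0317, adjusted p = 0.9995 in limma) without both arrays numbered 3. A second Nid1 probe set gave -0.33 with all arrays.

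Perlecan (Hspg2), a large heparan sulfate proteoglycan, read 7.56, 7.35 and 7.49 with PBS, and 7.39, 7.55 and 8.03 with MG. MG replicate 3 alone was high. This left a log2 difference of 0.20 (standard error 0.18, interval from -0.21 to 0.61), and 0.02 without both arrays numbered 3. Nid2 had the same high value in MG replicate 3, 0.62 above the mean of MG replicates 1 and 2, and a difference of 0.07 that was -0.27 without both arrays numbered 3. Agrin (Agrn), another heparan sulfate proteoglycan, differed by 0.04 with a range of 0.31 over the 6 arrays.

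Among the fibrillar collagens, the rods of connective tissue, Col1a1 was the gene with no overlap. The PBS arrays read 7.07, 6.73 and 6.63, and the MG arrays 6.51, 6.55 and 6.59. All 3 MG values were below the lowest PBS value, by 0.05. The means were 6.81 ± 0.23 (SD, n = 3) and 6.55 ± 0.04 (SD, n = 3), a log2 difference of -0.26 (standard error 0.14, interval from -0.59 to 0.06). An exact permutation test (two-sided) returned p = 0.1, the lowest value possible with 3 arrays a group. Any gene with no overlap must give this value, so it adds nothing to the lack of overlap. Limma gave an unadjusted p of 0.101. The difference was -0.13 without PBS replicate 1, and -0.37 (standard error 0.15, unadjusted p = 0.0521 in limma) without both arrays numbered 3. Col1a2, which encodes the partner chain in type I collagen, stood close to the reference level, between 4.83 and 5.15. It differed by -0.10, and by -0.02 without both arrays numbered 3, as its lowest value was MG replicate 3. Col3a1 and Col2a1, the type III and type II chains, differed by 0.06 and -0.10, and by 0.01 and 0.0021 without both arrays numbered 3.

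Col11a1, which encodes a chain of type XI collagen, had the largest downward gap of PBS replicate 3 among the 39 genes. It lay at 8.78, 8.68 and 7.29 (PBS) and at 8.37, 8.40 and 7.89 (MG). Array 3 was lowest in each group, and the MG values lay inside the PBS range. The means differed by -0.03 (standard error 0.38, interval from -0.89 to 0.84). Without both arrays numbered 3 it was -0.34 (standard error 0.12, unadjusted p = 0.0321, adjusted p = 0.9995 in limma).

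Markers of cells that make fibrillar collagen in vessels and meninges were partly at the reference level. Of the 13 pericyte and fibroblast genes, 8 were above it in both groups, and Kcnj8, Anpep, Foxc1 and Tbx18 were below it in both. Their summed level, as log2 of the sum, ran from 10.83 to 11.47 in PBS and from 11.38 to 11.68 in MG. The list itself was split, with 7 genes higher and 6 lower after MG and a median difference of 0.02. Acta2, Pdlim3 and Tagln differed by 0.76, 0.52 and 0.47, and Mcam, Kcnj8 and Pdgfrb by -0.37, -0.32 and -0.16. These were the largest differences in each direction. Pdlim3 did not overlap between the groups and had an unadjusted p of 0.0214 (adjusted p = 0.9998) in limma. Of the 11 endothelial genes, 5 exceeded that level in PBS and in MG, and Cldn5, Tek, Tie1, Emcn and Erg were below it in both. The sum of the endothelial genes ran from 8.71 to 9.15 in PBS and from 8.73 to 9.11 in MG. Of the 10 microglia and macrophage genes, 4 were above it, and Aif1, Tmem119, Itgam, Ptprc and C1qb were below it in both groups. The part of these markers in the collagen and laminin values was not tested.

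The syndecans, transmembrane carriers of heparan sulfate, differed between the groups by -0.20 to 0.06. Syndecan-4 (Sdc4), a partner of integrins at adhesions, measured 10.06, 10.01 and 9.52 on the PBS arrays against 9.87, 9.76 and 9.38 on the MG arrays. Array 3 was lowest in each group, and the groups overlapped. The log2 difference was -0.20 (standard error 0.19, interval from -0.64 to 0.25). Syndecan-1 (Sdc1) moved against Sdc4 on the arrays. It was highest on array 3 in each group, 0.23 above the mean of the other replicates in PBS and 0.67 above it in MG, within an overall span from 6.31 to 7.00. Its difference was -0.05 (standard error 0.20, interval from -0.51 to 0.41). It was -0.20 without both arrays numbered 3, and a second probe set gave 0.09. Sdc2 and Sdc3, the latter abundant in neural cells, each had a range of 0.24 over the 6 arrays and differed by -0.03 and 0.06.

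The glypicans are anchored in the membrane by a lipid. Gpc4, which neural progenitors and astrocytes make, was the other gene with no overlap, at 7.26, 7.36 and 7.20 in PBS and 7.36, 7.51 and 7.61 in MG. The gap between the groups was 0.01, between PBS replicate 2 and MG replicate 1. The means were 7.27 ± 0.08 (SD, n = 3) and 7.50 ± 0.13 (SD, n = 3), a log2 difference of 0.22 (standard error 0.12, interval from -0.06 to 0.50). The same exact permutation test gave p = 0.1, again fixed by the lack of overlap, and limma an unadjusted p of 0.101. The difference was 0.13 (standard error 0.13) without both arrays numbered 3.

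Gpc3, the direct neighbour of Gpc4 on the X chromosome, did not follow it. Gpc3 read 5.04, 4.92 and 4.84 with PBS, and 5.69, 5.17 and 4.53 with MG, so that MG held both the highest and the lowest value. Its log2 difference was 0.19 (standard error 0.26, interval from -0.41 to 0.80) at a level close to the reference, and 0.45 (standard error 0.19) without both arrays numbered 3. Gpc1 and Gpc2 had ranges of 0.22 and 0.27 over the 6 arrays and differed by -0.03 and 0.04. A second, dimmer Gpc1 probe set gave 0.12.

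SPARC and its relative SPARC-like 1 (Sparcl1, also called hevin) are matricellular proteins, which bind collagen and tune adhesion without forming fibres, and Sparcl1 is known as an astrocyte protein. Sparcl1 lay at 7.43, 8.18 and 8.93 (PBS) and at 9.03, 9.16 and 7.55 (MG). It was the only one of the 39 genes in which array 3 stood over 1 log2 unit above the mean of replicates 1 and 2 in PBS and over 1 below that mean in MG. MG minus PBS came to 0.40 (standard error 0.49, interval from -0.73 to 1.52). Without both arrays numbered 3 it was 1.29 (standard error 0.25, interval from 0.69 to 1.88, unadjusted p = 0.00168 and adjusted p = 0.974 in limma). The difference was 0.02 without PBS replicate 1, 0.11 without MG replicate 2 and 0.91 without MG replicate 3. The mean of the 10 astrocyte markers, relative to the 6 arrays, was -0.03, 0.19 and -0.37 in PBS and 0.30, 0.23 and -0.31 in MG. It was low on the MG array where Sparcl1 was low, and also on the PBS array where Sparcl1 was high. The part of these markers in the Sparcl1 values was not tested. Sparc measured 9.82, 9.81 and 8.86 on the PBS arrays against 9.64, 9.92 and 9.35 on the MG arrays. It was lowest on array 3 in each group and differed by 0.14 (standard error 0.27), or by -0.04 without both arrays numbered 3.

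Genes that build and trim the sugar chains and collagens, hyaluronan receptors and further relatives of the matrix genes were counted from lists made for these genes. Of 102 listed genes 94 were measured, and 3 (3.19%) had an unadjusted p under 0.05 in limma, close to the 3.21% of all genes. None passed after adjustment. Of 14 genes of chondroitin sulfate synthesis and sulfation, 9 had higher and 5 lower means after MG, with a median difference of 0.02. Of 21 genes of heparan sulfate synthesis and editing, 15 were higher and 6 lower (median 0.05). All 6 genes of the linker that joins either chain to its core protein were higher, by 0.0033 to 0.23. Hyaluronan genes were split, 5 higher and 4 lower. For collagen processing 12 were higher and 4 lower (median 0.02), and for 28 further relatives of the matrix genes 11 were higher and 17 lower (median -0.05). Most of these splits rested on the arrays numbered 3. Without them, the counts of higher and lower means were 4 and 10 for chondroitin sulfate, 9 and 12 for heparan sulfate, and 4 and 2 for the linker. They were 3 and 6 for hyaluronan, 6 and 10 for collagen processing, and 10 and 18 for the further relatives. In the linker, Xylt1 and Fam20b then differed by -0.07 and -0.10, and B3galt6, at 0.23 with all arrays, by 0.05.

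The 3 genes under an unadjusted p of 0.05 were P4ha3, Hs3st2 and Dcn. P4ha3, a subunit of the enzyme that hydroxylates collagen prolines, read 4.77, 5.03 and 4.81 with PBS, and 5.33, 6.30 and 5.28 with MG. All MG values were above all PBS values, and MG replicate 2 was the highest. This left a log2 difference of 0.76 (standard error 0.26, unadjusted p = 0.0202, adjusted p = 0.9998 in limma), with the PBS mean below the reference level. Hs3st2, a heparan sulfate sulfotransferase, and Dcn, which encodes decorin, had both means under the reference level. The main subunits of prolyl hydroxylase, P4ha1 and P4ha2, were chosen after their values were seen because of the arrays numbered 3. P4ha1 lay at 10.38, 10.13 and 9.23 (PBS) and at 10.26, 9.98 and 9.18 (MG), and the replicate 3 gaps of P4ha2 were -1.41 in PBS and -0.72 in MG. Both were lowest on array 3 in each group, as were Fn1, Col11a1, Nid1 and Sparc, and they differed between the groups by -0.11 (P4ha1) and 0.26 (P4ha2). They do not stand for their whole list. Of its 16 genes, replicate 3 was below the mean of replicates 1 and 2 in both groups for 9 and above it for 5. Over all genes these shares were 34.0% and 28.9%. P3h2, for example, stood 0.44 above that mean in PBS and 1.03 above it in MG.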

How the data were processed

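Partek 6.6 is named for the analysis of the arrays, per the submitters' processing notes. The values are on a log2 scale, deposited by the authors, and span 0.73 to 13.81. The scale was inferred from that range. Background correction, normalisation and summarisation are not stated, and no genome build is named (not given in the sources used here). Array medians lay between 5.25 and 5.42, and the number of arrays limits the precision.

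Of 41345 probe sets, 23521 named 1 gene in the platform's annotation and 1814 several. Per gene, the probe set with the highest mean over the 6 arrays was used (22180 genes, no filter on dim genes). MG was compared with PBS by limma 3.58.1 in R 4.3.3 (lmFit, eBayes, two-sided, no covariate), fitted over all genes with Benjamini-Hochberg adjustment. The steps were tested on simulated data. An SD after a mean is that group's, and a gene's within-group SD is pooled over both groups. Figures were drawn with matplotlib 3.10.9.

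Full statistics were given for genes with an unadjusted p under 0.05 or no overlap, and for each family's largest difference and largest spread. The genes and lists, and the receptor genes as reference level, were chosen with earlier results of these data known. Whether the replicate numbers pair the cultures was checked by correlating deviations from the group means over all genes.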

Additional observations from a re-analysis of the deposited data

How the results depend on the processing

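The fit was repeated without dim genes, with probe sets averaged, after quantile normalisation or centring on array medians, with trended and robust or no moderation, with array weights, with a replicate block, without each array and without both arrays numbered 3. In all 15, 0 of the 39 genes (36 without dim genes) passed the adjusted threshold, and the lowest adjusted p of a matrix gene was 0.942. The unadjusted count of 0 became 2 with array weights (1163 of all genes) and 5 without both arrays numbered 3 (1067 of all genes), and ran from 0 to 4 with 1 array left out. It was 3 without PBS replicate 3 (Col4a5, Col11a1 and Nid1, with 669 of all genes) and 4 without MG replicate 3 (Tnc, Tnr, Gpc3 and Sparcl1, with 940). The count of higher means, 25, ran from 16 (without PBS replicate 3) to 29 with 1 array left out.

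Same-numbered cultures correlated at 0.22, 0.04 and 0.45 in their deviations. Differently numbered ones correlated at 0.23 and 0.26 among replicates 1 and 2, and at -0.37 to -0.21 where 1 of them was a replicate 3. So the numbers were not taken to pair the cultures. With the replicate block 25 genes had higher means and 0 had an unadjusted p under 0.05, while the count over all genes went from 712 to 1063 (0 adjusted in both).

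Of 254 values of the genes given with statistics and above the reference level in at least 1 group, 229 kept their direction and side of the threshold and 25 changed sign; the cause was not tested. Outside single arrays left out, these were Fn1 (-0.0001) and Lamb2 (-0.0062) with quantile normalisation, Lamb2 with array weights (-0.10), Sdc1 with averaged probe sets (0.0171), and Ptprz1 (0.0223) and Lamb2 (-0.19) without both arrays numbered 3. With 1 array left out the log2 difference ran from -0.0918 to 1.20 for Tnr, -0.0857 to 0.0675 for Ptprz1, -0.11 to 0.13 for Cspg5, -0.14 to 0.28 for Fn1, -0.26 to 0.22 for Lamb2, -0.39 to 0.0706 for Col4a5, -0.51 to 0.24 for Col11a1, -0.52 to 0.14 for Nid1, -0.27 to 0.0685 for Sdc1 and -0.0872 to 0.49 for Gpc3. It ran from 0.0211 to 0.91 for Sparcl1 and from -0.35 to -0.13 for Col1a1. Hapln1, below the reference level in both groups, ran from -0.16 to 0.28, from which no direction or stability is read.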
